A study of Saccharomyces cerevisiae with 12 samples.

Results

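The mRNAs of 10 genes that carry the osmostress signal in budding yeast were followed, from the sensors *SLN1* and *SHO1* to the MAP kinase *HOG1*. The genes were taken by name and systematic identifier from a table of 7126 genes: *SLN1* (YIL147C), *YPD1* (YDL235C), *SSK1* (YLR006C), *SSK2* (YNR031C), *SSK22* (YCR073C), *SHO1* (YER118C), *STE50* (YCL032W), *STE11* (YLR362W), *PBS2* (YJL128C) and *HOG1* (YLR113W). All 10 passed the filter on low counts, which kept 6040 genes. RNA was sequenced from Spt4-AA and wild type cells in 4 groups of 3 biological replicates: Spt4-AA after 15 min in 0.4 M NaCl, wild type after the same treatment, and both strains without stress. Spt4-AA carries the changes T42A and S43A in the transcription elongation factor Spt4, at residues chosen as Hog1 phosphorylation sites. Both strains were in the haploid BY4741 background (*MATa his3 leu2 met15 ura3*), carried a TAP tag on Spt4 with the *kanMX4* marker, and were grown in rich medium at mid-log phase. The sources used here do not say whether more than 1 clone of each strain was grown.

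The high osmolarity glycerol (HOG) pathway is the MAP kinase cascade by which yeast senses a rise in external osmolarity. It has a pair of upstream branches that meet at the MAPKK Pbs2. In the Sln1 branch, the membrane histidine kinase Sln1 passes phosphate through Ypd1 to the response regulator Ssk1 as long as osmolarity is low. Stress stops this relay, and unphosphorylated Ssk1 activates the MAPKKKs Ssk2 and Ssk22. In the Sho1 branch, the membrane protein Sho1 acts with the mucins Msb2 and Hkr1, the adaptor Ste50 and the MAPKKK Ste11, which also serves the mating and filamentous growth pathways. Pbs2 then phosphorylates Hog1 on a threonine and a tyrosine, and active Hog1 enters the nucleus, where it takes part in stress-induced transcription. The pathway is controlled mainly by phosphorylation, and the counts used here measure mRNA only.

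The genes lie on 7 chromosomes of the R64 (sacCer3) genome, each as a single coding exon that overlaps no other RefSeq gene. *SLN1* is on chromosome IX from 69791 to 73453, *YPD1* on IV from 33415 to 33918, *SSK1* on XII from 161755 to 163893, *SSK2* on XIV from 680694 to 685433 and *SSK22* on III from 242588 to 246583. *SHO1* is on V from 397952 to 399055, *STE50* on III from 63441 to 64481, *STE11* on XII from 849866 to 852019, *PBS2* on X from 178097 to 180103 and *HOG1* on XII from 371620 to 372927. Coding lengths run between 504 bases (*YPD1*) and 4740 bases (*SSK2*), and GC content between 35.5% (*YPD1*) and 43.7% (*STE50*). Every stretch of 50 bases in these genes, the read length, occurs at a single place in the genome.

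*HOG1* is shown first by the stretch in which its activation is written. The 51 bases printed here are chrXII:372118-372168 on the plus strand (R64), and the capitals mark codons 174 to 176 of 435, which encode the Thr-Gly-Tyr motif that Pbs2 phosphorylates.
HOG1: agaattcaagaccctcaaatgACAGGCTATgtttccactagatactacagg

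*SSK2* and *SSK22* are paralogs, so that reads could in principle be assigned to the wrong gene. Over 3906 aligned coding bases 2628 were identical (67.3%), and the genes shared 0 stretches of 50 bases. Their most alike stretch of 50 bases, which lies near the end of both genes, is printed to show how far a read can tell them apart. It is chrXIV:680887-680936 in *SSK2* and chrIII:242781-242830 in *SSK22*, both on the minus strand, and the capitals mark the 4 positions that differ while the other 46 are identical.
SSK2: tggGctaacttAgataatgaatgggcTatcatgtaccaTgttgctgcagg
SSK22: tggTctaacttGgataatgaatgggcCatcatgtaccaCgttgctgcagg

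The sequence upstream of the genes was searched for motifs of stress and growth control, on both strands and from 250 bases before to 50 bases after the start codon. The stress response element AGGGG, bound by Msn2 and Msn4, was in 0 of the 10 promoters and in 21.6% of 6001 promoters. TGACGT, the core of the element bound by Sko1, was in 2 of the 10 and in 7.55% of all, and GGGACAAA, bound by Hot1, was in 0 of the 10 and 0.8% of all. The pheromone response element TGAAACA (7.5% of all promoters), the PAC motif GATGAG (20.4%) and the RRPE motif AAAATTTT (9.03%), of which the last pair is known from ribosome synthesis genes, were in 0 of the 10. The windows with the Sko1 core are printed with the core in capitals. It begins 83 bases before the start codon of *YPD1* (chrIV:33984-34013, minus strand) and 97 bases before that of *PBS2* (chrX:180183-180212, minus strand), where it reads as its reverse complement ACGTCA.
YPD1: attgataaccacTGACGTgtaatagtttta
PBS2: ctccagacatcaACGTCAtacaactaaaac
A match is a string of letters and not evidence of binding.

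With 500 bases before the start codon, a length chosen after seeing the data, AGGGG was found in 4 of the 10 genes and in 36.4% of promoters. The 4 windows are printed because these genes include *SSK1* and *STE11*, whose mRNAs rose most upon osmostress in wild type, and *SSK22*, whose mRNA fell most. The capitals mark the motif or its reverse complement CCCCT. It begins 284 bases before the start codon of *SSK1* (chrXII:164160-164189, minus strand), 283 before that of *SSK22* (chrIII:246849-246878, minus strand), 482 before that of *STE50* (chrIII:62947-62976, plus strand) and 295 before that of *STE11* (chrXII:849559-849588, plus strand).
SSK1: gccctaaaagcgCCCCTggattgaatcttt
SSK22: ttgttaggaaaaCCCCTgtagcgcccgccc
STE50: tgtgatggctccAGGGGatacctcttcgta
STE11: tagttttccctcCCCCTtttaaagtaatct
Genes of either direction of response held it.

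The 12 libraries held between 12903162 and 21909524 counts (median 15580005). As a check of the stress, the salt-induced genes *STL1*, *CTT1*, *GPD1* and *GRE2* rose in both strains, by 3.71 (*GRE2*) to 11.95 (*STL1*) on the log2 scale in wild type. The *MATa* marker genes summed to between 973 and 2159 normalized CPM (counts scaled to library size) over the libraries and the 4 *MATalpha* markers to between 39.2 and 55.6, of which *SAG1* held 33.5 to 49.3, while the alpha pheromone gene *MF(ALPHA)1* had 0 to 8 counts and the receptor gene *STE3* 18 to 83. The T42A and S43A changes cannot be read from counts per gene. *SPT4* itself was at 12.8 to 19.2 CPM in Spt4-AA and 18.2 to 21.1 CPM in wild type upon osmostress, and at 7.78 to 11.6 CPM in Spt4-AA and 12.7 to 17.3 CPM in wild type without stress. Its strain difference passed the edgeR test neither upon osmostress (log2 difference -0.27, adjusted p = 0.23) nor without stress (-0.61, adjusted p = 0.259). The deleted genes *LEU2*, *MET17* and *URA3* together had at most 2 counts in 11 libraries, but 139 in Spt4-AA NaCl replicate 2. *HIS3*, which the strain's *his3* allele removes only in part, had 304 to 1011 counts in every library. Leaving out Spt4-AA NaCl replicate 2 changed 1 call on the pathway genes, that of *SSK2* between the strains upon osmostress (log2 difference -0.54, adjusted p = 0.0875). Spt4-AA NaCl replicates 1 and 2 also had library numbers apart from those of the other 10. With a term for these numbers in the fit, the Spt4-AA responses of *PBS2* (adjusted p = 0.0678), *YPD1* (0.0884), *STE50* (0.0506) and *SLN1* (0.133) no longer passed.

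The mRNA of *HOG1* was the most abundant of the 10 in every group, and that of *SSK22* the least. Per kb of coding length, *HOG1* was at 341 ± 19.1 CPM in Spt4-AA and 335 ± 39.0 CPM in wild type upon osmostress, against 232 ± 14.5 CPM in Spt4-AA and 228 ± 22.5 CPM in wild type without stress (SD, n = 3 each). *SSK22* was at 0.876 ± 0.162 CPM per kb in Spt4-AA and 0.464 ± 0.123 CPM per kb in wild type upon osmostress, against 4.79 ± 0.755 CPM per kb in Spt4-AA and 4.83 ± 0.42 CPM per kb in wild type without stress (SD, n = 3 each). The mean of the highest gene was therefore 389 times that of the lowest in stressed Spt4-AA and 722 times in stressed wild type, against 48.4 times in unstressed Spt4-AA and 47.2 times in unstressed wild type.

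In unstressed wild type the order of levels per kb was *HOG1*, *YPD1* (74.1), *SHO1* (67.8), *PBS2* (35.8), *STE50* (20.6), *SLN1* (20.4), *SSK1* (17.6), *STE11* (11.5), *SSK2* (5.98) and *SSK22* (4.83). The library ranges overlapped between *YPD1* and *SHO1*, between *STE50*, *SLN1* and *SSK1* in turn, and between *SSK2* and *SSK22*, so these neighbours were not separate. In unstressed Spt4-AA *SHO1* (71.3) and *YPD1* (63.3), *SLN1* (22.3) and *STE50* (21.3), and *SSK2* (5.62) and *SSK22* (4.79) were the neighbours that overlapped. Upon osmostress *SHO1* stood lower in the order and *SSK1* higher. In stressed Spt4-AA the order was *HOG1*, *YPD1* (76.0), *PBS2* (42.0), *SSK1* (30.2), *STE50* (27.8), *SHO1* (26.6), *SLN1* (14.8), *STE11* (14.2), *SSK2* (4.34) and *SSK22*, and only *SLN1* and *STE11* overlapped. Stressed wild type had the same first 5 places with *YPD1* at 66.7, *PBS2* at 52.0, *SSK1* at 44.1 and *STE50* at 31.6, followed by *STE11* (20.8), *SLN1* (17.4) and *SHO1* (17.4), which overlapped in turn, and by *SSK2* (7.10) and *SSK22*.

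**Figure D1:**
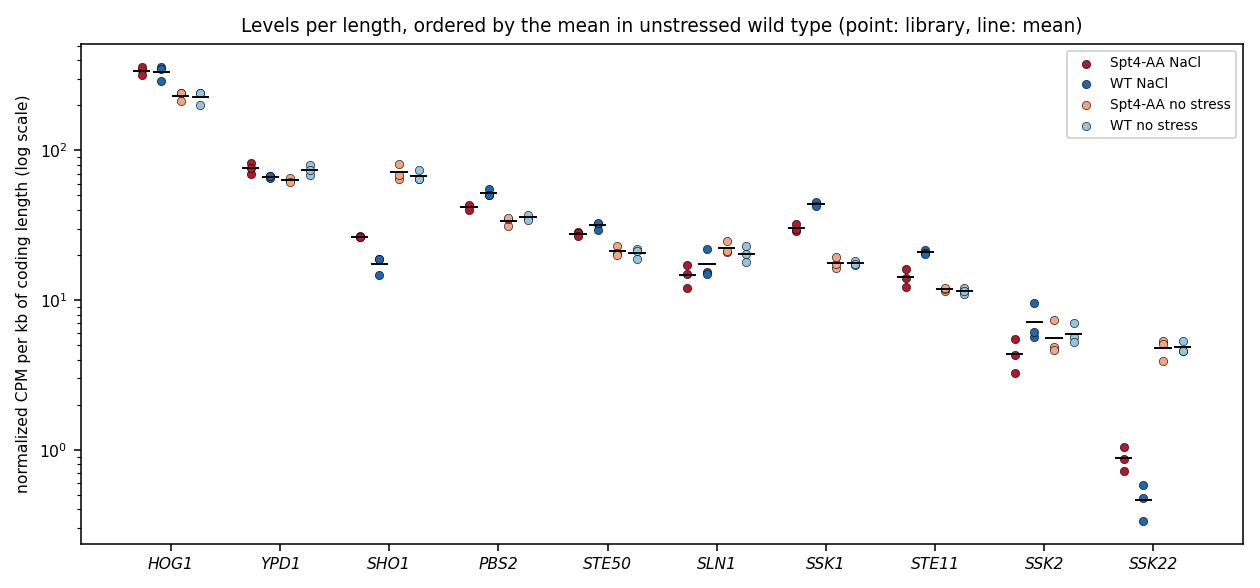
Levels of the 10 genes in normalized CPM per kb of coding length on a log axis, with a point per library and a line at the mean of the 3 libraries of each group (Spt4-AA NaCl, wild type NaCl, Spt4-AA no stress, wild type no stress). *HOG1* lies at 228 to 341 in the means of the 4 groups, and *SSK22* falls below 1 in both stressed groups.

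Upon osmostress the genes of the pathway did not move as a block. In Spt4-AA 6 of the 10 mRNAs rose (*PBS2*, *YPD1*, *STE50*, *SSK1*, *HOG1*, *STE11*) and 3 fell (*SHO1*, *SLN1*, *SSK22*), and in wild type 5 rose (the same genes without *YPD1*) and 2 fell (*SHO1*, *SSK22*), at an adjusted p under 0.05 (quasi-likelihood test of edgeR, Benjamini-Hochberg correction over the 6040 genes). Over all genes tested, 34.9% rose and 33.4% fell in Spt4-AA, and 36.4% rose and 33.9% fell in wild type. Among these the change was at least 2-fold for 2 genes in Spt4-AA, both lower (*SHO1*, *SSK22*), and for 3 genes in wild type, 1 higher (*SSK1*) and 2 lower (*SHO1*, *SSK22*). The 2-fold shares over all genes were 15.7% higher and 14.9% lower in Spt4-AA, and 18.3% higher and 18.7% lower in wild type. The median log2 fold change (log2FC) of the 10 genes was 0.27 in Spt4-AA and 0.40 in wild type, beside medians over all genes of 0.01 in Spt4-AA and 0.03 in wild type. Their median absolute log2FC was 0.47 in Spt4-AA and 0.59 in wild type, beside 0.63 in Spt4-AA and 0.70 in wild type for all genes.

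These directions are relative to the bulk of the mRNA in each library, since TMM normalization centres the libraries on a trimmed mean of the genes' log ratios. A change in mRNA per cell cannot be told apart from one in the share of the mRNA pool. *ENO1*, a glycolytic gene used as a loading control in the study's blots, itself passed as higher upon NaCl after TMM. Its log2FC was 0.89 in Spt4-AA (edgeR, adjusted p = 0.00045) and 0.53 in wild type (adjusted p = 0.0156). It ranged from 4123 to 7109 CPM among the stressed Spt4-AA libraries. Scaling the libraries to *ENO1* moved the median of all genes by -0.82 in the Spt4-AA response and by -0.52 in the wild type response. On that scale the 6 genes that rose in Spt4-AA had estimates of -0.55 to -0.04, and in wild type only *SSK1* passed as higher. Scaling to library totals alone moved the median by 0.15 in the Spt4-AA response and 0.34 in the wild type response.

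**Figure D2:**
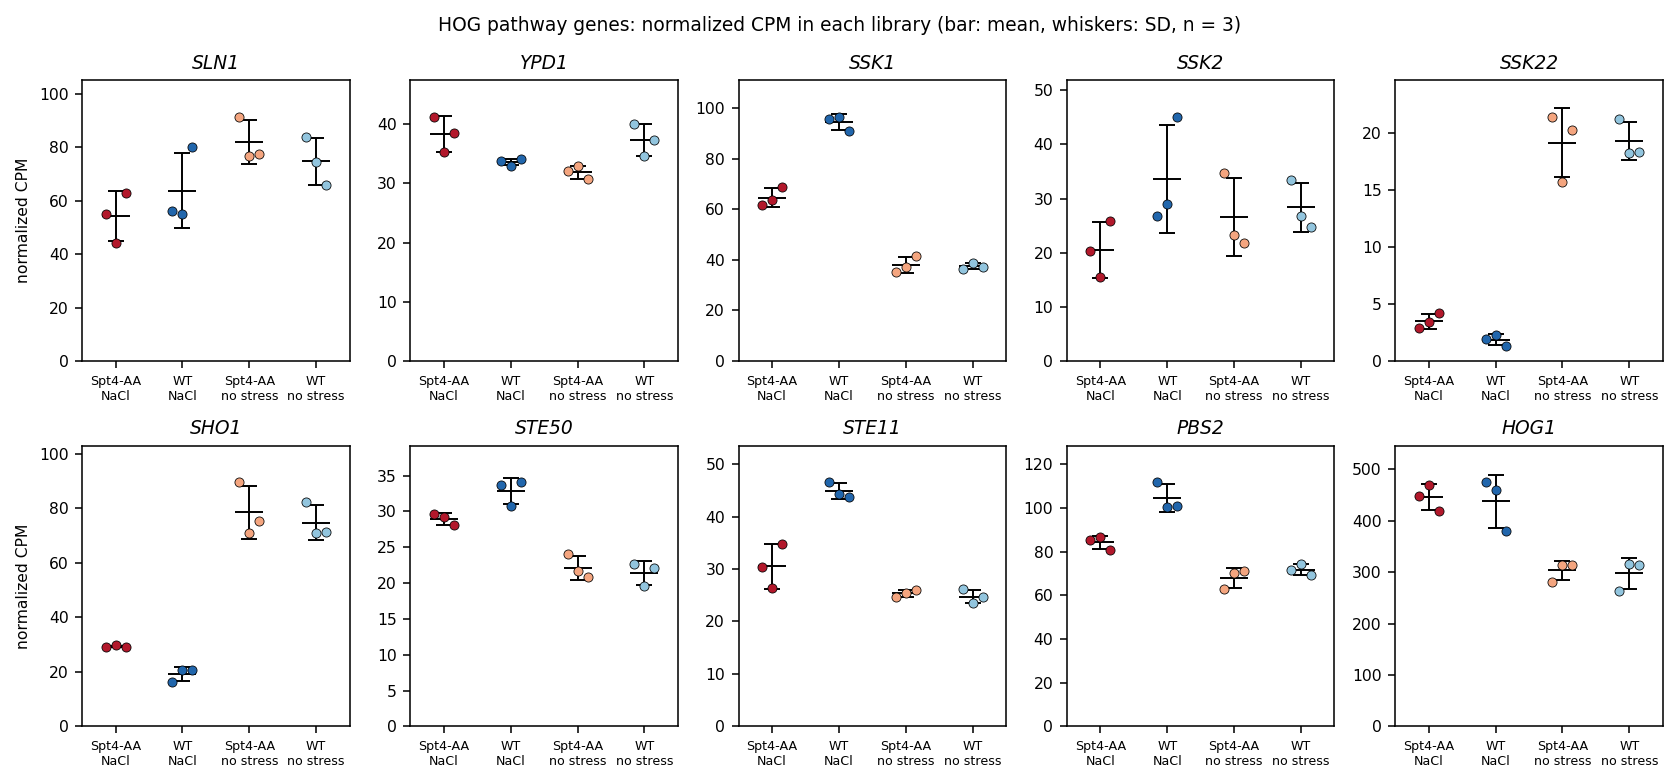
Normalized CPM of each gene in each of the 12 libraries, with the mean (bar) and SD (whiskers, n = 3) of Spt4-AA NaCl, wild type NaCl, Spt4-AA no stress and wild type no stress, each panel on its own axis that starts at 0. *SSK1* and *STE11* are lower in stressed Spt4-AA than in stressed wild type, *SHO1* and *SSK22* are higher, and *HOG1* overlaps between the strains.

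*SLN1* encodes the osmosensor histidine kinase. It had 55.0, 44.3 and 62.9 CPM in Spt4-AA upon osmostress and 56.2, 55.0 and 80.1 CPM in wild type upon osmostress, against 91.3, 76.5 and 77.6 CPM in Spt4-AA and 83.7, 74.3 and 65.9 CPM in wild type without stress. The stressed and unstressed libraries did not overlap in Spt4-AA and did in wild type, where replicate 3 of the stressed group was the high one. *SLN1* fell in Spt4-AA (log2FC -0.60, standard error 0.16, adjusted p = 0.00416). Its change in wild type was -0.23 (standard error 0.16, adjusted p = 0.215). Without wild type NaCl replicate 3 the wild type value passed the test too (-0.43, adjusted p = 0.0181). The Spt4-AA call was lost with library totals alone (-0.42, adjusted p = 0.126) and with the term for library numbers (-0.38, adjusted p = 0.133). With the length trend of each library removed, both strains passed as lower (-0.27 in Spt4-AA, adjusted p = 0.0113, and -0.29 in wild type, adjusted p = 0.00648).

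*YPD1* encodes the phosphotransfer protein between Sln1 and Ssk1, and it had the smallest estimated change of the 10 genes in both strains. The libraries held 41.2, 35.3 and 38.5 CPM in Spt4-AA and 33.8, 33.0 and 34.1 CPM in wild type upon osmostress, against 32.0, 32.9 and 30.8 CPM in Spt4-AA and 40.1, 34.6 and 37.4 CPM in wild type without stress. In Spt4-AA the stressed libraries were all higher than the unstressed ones, and in wild type they were all lower. The rise in Spt4-AA was 0.26 (standard error 0.10, adjusted p = 0.0257), and it no longer passed without Spt4-AA no stress replicate 1 (adjusted p = 0.0575) or 3 (0.0864) or Spt4-AA NaCl replicate 1 (0.101), on the groups compared alone (0.0558) or with the length correction (0.0509). The wild type change of -0.15 was not significant (standard error 0.10, adjusted p = 0.177).

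*SSK1*, the response regulator that activates Ssk2 and Ssk22, had the largest rise of the 10 genes in both strains. It was at 61.6, 63.5 and 68.6 CPM in stressed Spt4-AA and 95.7, 96.4 and 90.8 CPM in stressed wild type, against 35.3, 37.1 and 41.4 CPM in unstressed Spt4-AA and 36.5, 38.9 and 37.3 CPM in unstressed wild type. Stressed libraries lay above unstressed ones in both strains, and stressed Spt4-AA lay below stressed wild type in every library. The rise was 1.70-fold in Spt4-AA (log2FC 0.77, standard error 0.09, adjusted p = 2.72e-06) and 2.51-fold in wild type (1.33, standard error 0.09, adjusted p = 3.95e-09).

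The MAPKKK gene *SSK2*, the longest of the set, was variable among replicates. Its levels were 20.3, 15.5 and 25.9 CPM in stressed Spt4-AA and 26.9, 29.1 and 45.1 CPM in stressed wild type, against 34.8, 23.2 and 21.8 CPM in unstressed Spt4-AA and 33.4, 26.9 and 24.8 CPM in unstressed wild type. Stressed and unstressed libraries overlapped in both strains. Its coefficient of variation was 25.2% in stressed Spt4-AA and 29.6% in stressed wild type, against 26.8% in unstressed Spt4-AA and 15.7% in unstressed wild type. The response was -0.37 in Spt4-AA (standard error 0.24, adjusted p = 0.172) and 0.25 in wild type (standard error 0.23, adjusted p = 0.347), and neither passed the test.

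*SSK22*, the paralog of *SSK2*, had the largest change of the 10 genes. It was counted 52, 51 and 80 times in stressed Spt4-AA and 31, 36 and 22 times in stressed wild type, which made it the only member under 100 counts, and 202 to 339 times in unstressed Spt4-AA and 287 to 353 times in unstressed wild type. In normalized values these were 2.88, 3.45 and 4.17 CPM in stressed Spt4-AA and 1.91, 2.32 and 1.34 CPM in stressed wild type, against 21.4, 15.7 and 20.3 CPM in unstressed Spt4-AA and 21.2, 18.3 and 18.4 CPM in unstressed wild type. Every stressed library of wild type was lower than every stressed library of Spt4-AA, and both were far below the unstressed ones. The mRNA was 5.45-fold lower in Spt4-AA (log2FC -2.45, standard error 0.20, adjusted p = 5.17e-08) and 10.4-fold lower in wild type (-3.38, standard error 0.21, adjusted p = 2.04e-09).

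The balance of these paralogs shifted with stress. *SSK22* over *SSK2*, per kb and within each library, was 0.208 ± 0.0501 in stressed Spt4-AA and 0.0714 ± 0.0317 in stressed wild type, against 0.878 ± 0.196 in unstressed Spt4-AA and 0.813 ± 0.0611 in unstressed wild type (SD, n = 3 each). The lowest ratio in stressed Spt4-AA (0.168) was above the highest in stressed wild type (0.0947), and the unstressed ranges overlapped. Among the other Sln1 branch genes, *SSK1* over *SLN1* was 2.08 ± 0.326 in stressed Spt4-AA and 2.62 ± 0.59 in stressed wild type, against 0.803 ± 0.128 in unstressed Spt4-AA and 0.871 ± 0.113 in unstressed wild type. *YPD1* over *SSK1* was 2.53 ± 0.273 in stressed Spt4-AA and 1.52 ± 0.0718 in stressed wild type, against 3.59 ± 0.38 in unstressed Spt4-AA and 4.23 ± 0.441 in unstressed wild type.

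*SHO1*, the membrane protein that gives the other branch its name, fell in both strains. The stressed libraries had 29.0, 29.7 and 29.2 CPM in Spt4-AA and 16.2, 20.7 and 20.7 CPM in wild type, against 89.6, 71.1 and 75.3 CPM in unstressed Spt4-AA and 82.2, 70.9 and 71.2 CPM in unstressed wild type. Stressed and unstressed libraries did not overlap, and the 3 stressed Spt4-AA libraries, with a coefficient of variation of 1.2%, lay above all 3 of stressed wild type. The fall was 2.68-fold in Spt4-AA (log2FC -1.42, standard error 0.12, adjusted p = 7.17e-08) and 3.89-fold in wild type (-1.96, standard error 0.12, adjusted p = 1.63e-09).

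*STE50*, which encodes the adaptor that links Ste11 to the membrane, rose by a small amount. Its values were 29.6, 29.3 and 28.0 CPM in Spt4-AA and 33.7, 30.8 and 34.1 CPM in wild type upon osmostress, against 24.0, 21.6 and 20.8 CPM in Spt4-AA and 22.7, 19.6 and 22.1 CPM in wild type without stress. Stressed libraries were above the unstressed ones in both strains. The log2FC was 0.39 in Spt4-AA (standard error 0.11, adjusted p = 0.00478) and 0.62 in wild type (standard error 0.10, adjusted p = 9.42e-05).

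*STE11*, the MAPKKK of this branch, had a clear rise in wild type and a small one in Spt4-AA. It was at 30.4, 26.3 and 34.8 CPM in stressed Spt4-AA and 46.5, 44.4 and 43.7 CPM in stressed wild type, against 24.6, 25.5 and 25.9 CPM in unstressed Spt4-AA and 26.1, 23.6 and 24.6 CPM in unstressed wild type. The lowest stressed library of Spt4-AA (26.3 CPM) was just above the highest unstressed one (25.9 CPM). The rise was 1.21-fold in Spt4-AA (log2FC 0.27, standard error 0.11, adjusted p = 0.0424) and 1.81-fold in wild type (0.86, standard error 0.11, adjusted p = 5.14e-06). The Spt4-AA call held without wild type NaCl replicate 3 (adjusted p = 0.0495) or Spt4-AA NaCl replicate 2 (0.00831) and was lost without any other single library (0.0523 to 0.176). It was also lost with DESeq2 (0.053), without the filter on low counts (0.0604) and on the groups compared alone (0.0848). *STE11* over *SHO1*, per kb, was 0.534 ± 0.0781 in stressed Spt4-AA and 1.22 ± 0.219 in stressed wild type, against 0.167 ± 0.023 in unstressed Spt4-AA and 0.17 ± 0.00715 in unstressed wild type (SD, n = 3 each).

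At the point where the branches meet, *PBS2*, the MAPKK gene, had 85.3, 86.6 and 80.7 CPM in stressed Spt4-AA and 112, 101 and 101 CPM in stressed wild type, against 62.8, 70.4 and 70.9 CPM in unstressed Spt4-AA and 71.5, 74.4 and 69.3 CPM in unstressed wild type. The 3 stressed libraries of each strain lay above its unstressed ones, and those of wild type were the highest. *PBS2* rose by 0.31 in Spt4-AA (log2FC, standard error 0.09, adjusted p = 0.00519) and 0.54 in wild type (standard error 0.08, adjusted p = 4.38e-05).

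*HOG1*, the MAP kinase, had the same estimated rise in both strains. It had 449, 469 and 419.6 CPM in stressed Spt4-AA and 475, 459 and 379.9 CPM in stressed wild type, against 282, 314 and 315 CPM in unstressed Spt4-AA and 264, 315 and 314 CPM in unstressed wild type. Stressed libraries were all above unstressed ones, while the strains overlapped in either condition. The rise was 1.47-fold in Spt4-AA (log2FC 0.56, standard error 0.11, adjusted p = 0.000459) and 1.47-fold in wild type (0.56, standard error 0.11, adjusted p = 0.000385). *HOG1* over *PBS2*, per kb, was 8.12 ± 0.176 in stressed Spt4-AA and 6.44 ± 0.626 in stressed wild type, against 6.85 ± 0.0366 in unstressed Spt4-AA and 6.37 ± 0.658 in unstressed wild type (SD, n = 3 each).

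Without stress, no difference between Spt4-AA and wild type was detected for any of the 10 genes. The log2FC ran between -0.23 (*YPD1*) and 0.13 (*SLN1*), and the adjusted p (edgeR) was 0.564 for *YPD1* and at least 0.997 for the other 9. At an unadjusted p under 0.05 there was 1 gene of the 10, *YPD1*, and 465 of 6040, and DESeq2 also called 0 of the 10. Few genes passed at all in this comparison, with 0.265% higher and 0.563% lower. Widest among the 95% confidence intervals was that of *SSK2* (-0.58 to 0.42), and narrowest that of *PBS2* (-0.26 to 0.11).

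Upon osmostress, 6 of the 10 mRNAs differed between the strains. *SHO1* and *SSK22* were higher in Spt4-AA, and *PBS2*, *SSK1*, *STE11* and *SSK2* were lower, while 24.3% of all genes were higher and 23.4% lower. The differences were 0.61 for *SHO1* (log2FC, standard error 0.12, adjusted p = 0.00102), 0.92 for *SSK22* (standard error 0.23, adjusted p = 0.00506), -0.31 for *PBS2* (standard error 0.08, adjusted p = 0.00822), -0.55 for *SSK1* (standard error 0.09, adjusted p = 0.000182) and -0.55 for *STE11* (standard error 0.11, adjusted p = 0.000879). *SSK2* was at -0.71 (standard error 0.23, adjusted p = 0.0228), a call that was lost without wild type NaCl replicate 3 (-0.44, adjusted p = 0.132), Spt4-AA NaCl replicate 1 (-0.69, 0.0615) or Spt4-AA NaCl replicate 2 (-0.54, 0.0875). For *HOG1* the difference was 0.03, with a 95% confidence interval of -0.21 to 0.26 (adjusted p = 0.869). *SLN1* (-0.24), *YPD1* (0.19) and *STE50* (-0.18) did not pass either (adjusted p of 0.232, 0.117 and 0.16). With the term for library numbers the calls of *STE11* (-0.37, adjusted p = 0.0545) and *SSK2* (-0.38, adjusted p = 0.415) were lost, and with library totals alone that of *SHO1* was (0.40, adjusted p = 0.0731) while *STE50* passed as lower (-0.39, adjusted p = 0.0448). Scaled to *ENO1*, 0 of the 10 passed as higher in Spt4-AA, and the median of all genes moved by -0.31.

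The difference in response, which is the log2FC upon NaCl in Spt4-AA minus that in wild type, passed the test for 5 of the 10 genes. It was positive for *SHO1* (0.54, standard error 0.17, adjusted p = 0.0301), *YPD1* (0.42, standard error 0.14, adjusted p = 0.0382) and *SSK22* (0.93, standard error 0.29, adjusted p = 0.0307), where 15% of all genes passed as higher. For *SSK1* (-0.56, standard error 0.13, adjusted p = 0.00502) and *STE11* (-0.59, standard error 0.16, adjusted p = 0.0125) it was negative, where 11% of all genes passed as lower. *SHO1* and *SSK22* thus fell less in Spt4-AA, and *SSK1* and *STE11* rose less. This comparison uses the same libraries as those above, so it gives no separate sample of the strains.

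No difference in response was detected for *HOG1* (-0.0024, 95% confidence interval -0.34 to 0.33, adjusted p = 0.994), *PBS2* (-0.23, interval -0.49 to 0.03, adjusted p = 0.168), *STE50* (-0.23, interval -0.55 to 0.09, adjusted p = 0.262), *SLN1* (-0.37, interval -0.85 to 0.11, adjusted p = 0.236) or *SSK2* (-0.62, interval -1.33 to 0.08, adjusted p = 0.177). The intervals are wide enough that a difference of the size seen for *STE11* cannot be set aside for *SLN1* and *SSK2*. With library totals alone *PBS2* passed as lower (-0.42, adjusted p = 0.0446). The median difference in response was -0.23 for the 10 genes and -0.0073 for all genes, and the median absolute value was 0.48 and 0.38.

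The 3 positive calls were close to the threshold. *SHO1* lost its call without wild type no stress replicate 1 (adjusted p = 0.0716), wild type NaCl replicate 1 (0.0672), Spt4-AA no stress replicate 2 (0.071) or 3 (0.0727) or Spt4-AA NaCl replicate 1 (0.0545). *SSK22* lost it without wild type no stress replicate 1 (0.0641) or 3 (0.0503), wild type NaCl replicate 3 (0.0861), Spt4-AA no stress replicate 2 (0.0629) or Spt4-AA NaCl replicate 3 (0.0524), with estimates of 0.74 to 0.96. *YPD1* kept it only without wild type no stress replicate 2 (0.0392) or Spt4-AA NaCl replicate 2 (0.0257) or 3 (0.0324), and was at 0.0518 to 0.106 without each of the other 9. *SSK1* (0.00175 to 0.0184) and *STE11* (0.00159 to 0.0368) passed whichever library was left out. With library totals alone the 3 positive calls were lost (adjusted p of 0.135 to 0.435), with the term for library numbers those of *SHO1* (0.0952), *YPD1* (0.0995) and *STE11* (0.115), without the filter on low counts that of *YPD1* (0.0533), and scaled to *ENO1* all 5 (0.0818 to 0.801).

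**Figure D3:**
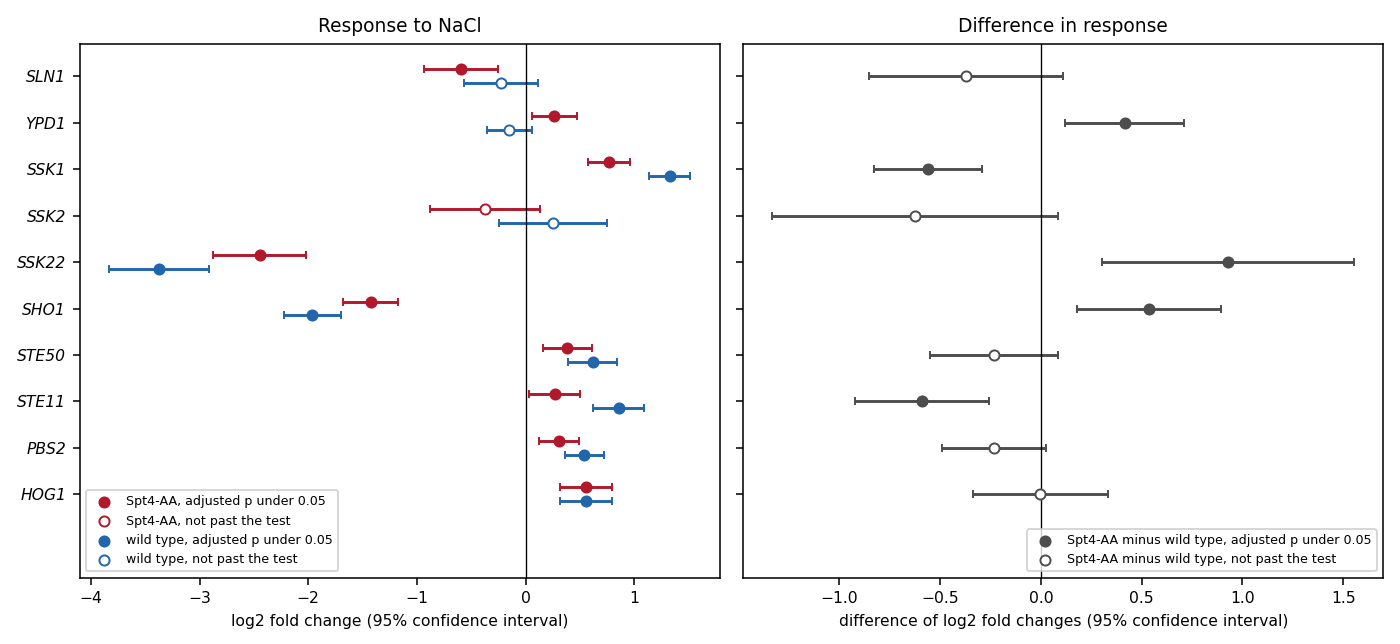
Left, log2 fold change upon NaCl of each gene in Spt4-AA and wild type with its 95% confidence interval, and right, the difference between the strains (Spt4-AA minus wild type). Filled points passed at an adjusted p under 0.05, which on the right holds for *YPD1*, *SSK1*, *SSK22*, *SHO1* and *STE11*. *HOG1* lies at 0.56 in both strains, and the rises in Spt4-AA turn to estimates below 0 when the libraries are scaled to *ENO1*.

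Gene length moved with the strain comparison. Over 5726 genes with a reference length, Spearman's rho of length with the difference in response was -0.35, and it was -0.323 with the strain difference upon osmostress (a description across genes, which are not independent replicates). Genes of at least 3500 bases (335 genes) had a median difference in response of -0.40, and those under 1500 bases (3492 genes) one of 0.12. *SSK2*, *SSK22* and *SLN1* are in the long class, and *YPD1*, *SHO1*, *STE50* and *HOG1* in the short one. Among them *SSK22* (3996 bases, 0.93) stood on the opposite side from the long genes, and *STE50* (1041 bases, -0.23) on that from the short ones. *HOG1* was at -0.0024.

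The same trend was present between replicates. Long genes were high in wild type NaCl replicate 3 (median deviation from the group mean 0.24 on the log2 scale) and in Spt4-AA NaCl replicate 3 (0.26) and low in Spt4-AA NaCl replicate 2 (-0.24). *SSK2* followed them in these libraries (0.46, 0.36 and -0.37), as did *SLN1* (0.35, 0.23 and -0.27), whereas *SSK22* was at -0.40, 0.26 and -0.0040. With the length trend of each library removed, *SSK2* was at -0.28 between the strains upon osmostress (adjusted p = 0.0835) and *PBS2* at -0.10 (adjusted p = 0.444). The difference in response became 0.24 for *YPD1* (adjusted p = 0.244) and -0.33 for *SSK1* (adjusted p = 0.0956), and both lost their calls. *STE11* (-0.37, adjusted p = 0.0474), *SHO1* (0.52, adjusted p = 0.0288) and *SSK22* (1.31, adjusted p = 0.00439) kept theirs. For the part of a difference that this correction removes, gene length and strain cannot be told apart.

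**Figure D4:**
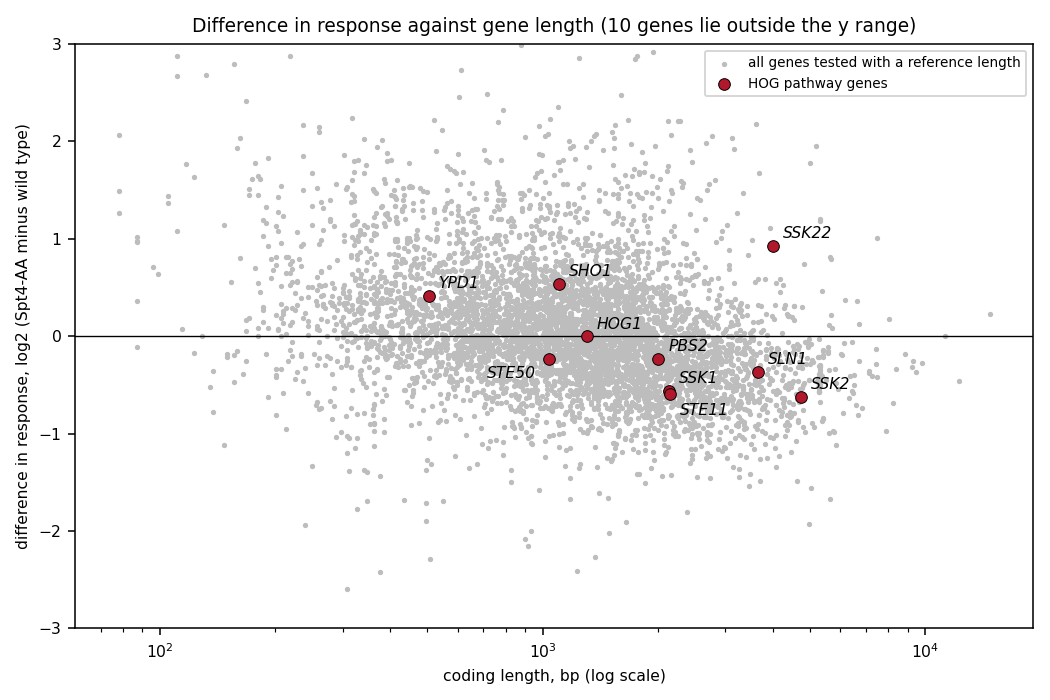
Difference in response (log2, Spt4-AA minus wild type) against coding length in bases on a log axis, for all genes tested with a reference length (grey, 10 of them outside the range of 3 either way) and the 10 pathway genes (red). *SLN1* and *SSK2* lie below 0 with most long genes, *SSK22* lies at 0.93 above them, and *HOG1* lies on the line.

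The library numbers, which the labels give without a meaning, were also used as a term in the model, so that Spt4-AA upon osmostress rested on replicate 3 alone. Fewer genes then passed in the difference in response, over all genes as well as among the 10, where *SSK22* and *SSK1* still did. For *SHO1* (0.53, adjusted p = 0.0952), *YPD1* (0.42, adjusted p = 0.0995) and *STE11* (-0.40, adjusted p = 0.115) the test was no longer passed.

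The other genes of the pathway and of its neighbours, taken from lists that were chosen with earlier results of these data known, did not share a direction. The counts of every list stand beside the shares over all genes, of which 34.9% rose and 33.4% fell in Spt4-AA. In wild type 36.4% of all genes rose and 33.9% fell. Calls on list genes come from the main fit, and were not repeated with the length correction, the term for library numbers or *ENO1* scaling. The first list held genes of phosphatases, which switch the pathway off, and the adaptor gene *NBP2*. Of these 7 genes, 3 rose and 1 fell in Spt4-AA, and 5 rose and 1 fell in wild type. Their median log2FC was 0.16 in Spt4-AA and 0.30 in wild type. *PTP2*, a tyrosine phosphatase of Hog1, rose by 0.59 in Spt4-AA and 1.11 in wild type, *PTC3* rose by 0.63 in Spt4-AA and 0.85 in wild type, and *PTC2* fell by 0.41 in Spt4-AA and 0.47 in wild type. *NBP2*, an adaptor of the phosphatases, rose by 0.50 in wild type. The differences in response of the 7 lay between -0.64 (*NBP2*, adjusted p = 0.073, the lowest of the list) and 0.14.

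Upstream in the Sho1 branch, 3 of 8 genes rose and 3 fell in Spt4-AA, and 3 rose and 4 fell in wild type. The mucin sensor gene *MSB2* was at 0.0034 in Spt4-AA (adjusted p = 0.981) and fell by 1.11 in wild type, and it had the largest difference in response of the 8 (1.11, standard error 0.16, adjusted p = 0.000226). *HKR1*, the other mucin, fell by 1.21 in Spt4-AA and 1.00 in wild type, and the kinase gene *STE20* fell by 0.91 in Spt4-AA and 0.68 in wild type. *OPY2*, a membrane anchor of Ste50, rose by 0.57 in Spt4-AA and 0.45 in wild type, and *CDC24* by 0.30 in Spt4-AA and 0.28 in wild type. *BEM1* was at -0.0057 in Spt4-AA (adjusted p = 0.969) and rose by 0.29 in wild type.

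Downstream, 4 of 9 effector genes rose and 2 fell in Spt4-AA, and 5 rose and 1 fell in wild type. The kinase gene *RCK1* rose by 1.26 in Spt4-AA and 2.36 in wild type (difference in response -1.10, adjusted p = 0.00741), and *RCK2*, a kinase that Hog1 phosphorylates, by 0.41 in Spt4-AA and 1.01 in wild type (difference -0.60, adjusted p = 0.00171). The stress transcription factor *MSN4* rose by 0.83 in Spt4-AA and 1.52 in wild type (difference -0.69, adjusted p = 0.00755), and its relative *MSN2* by 0.89 in Spt4-AA and 1.13 in wild type (difference -0.23, adjusted p = 0.329). *SKN7*, a response regulator that also receives phosphate from Sln1, fell by 0.83 in Spt4-AA and 0.95 in wild type. Between the strains upon osmostress, 7 of the 9 effectors were lower in Spt4-AA and the other 2 were not called. Their median was -0.44, beside -0.02 for all genes and 23.4% of genes called lower. In the cell wall integrity cascade, 7 of 9 genes were lower in this comparison and 1 was higher, with a median of -0.40. How far gene length contributes to the strain differences of either list was not tested.

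In the mating cascade, which shares *STE11* and *STE50* with the pathway, 2 of 9 genes rose and 4 fell in Spt4-AA, and 2 rose and 6 fell in wild type. *STE12*, the transcription factor, fell by 1.09 in Spt4-AA and 1.17 in wild type, and the MAP kinase gene *FUS3* by 0.64 in Spt4-AA and 0.84 in wild type. The G protein gamma subunit gene *STE18* rose by 1.19 in Spt4-AA and 0.90 in wild type, and the scaffold gene *STE5* by 0.31 in Spt4-AA and 0.39 in wild type. The pheromone receptor gene *STE2* was at -0.24 in Spt4-AA and fell by 0.64 in wild type. The differences in response of the 9 lay between -0.16 and 0.41 (*STE2*, adjusted p = 0.0856, the lowest of the list).

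In the cell wall integrity cascade 1 of 9 genes rose and 2 fell in Spt4-AA, and 6 rose and 2 fell in wild type, with medians of -0.02 in Spt4-AA and 0.34 in wild type. *SLT2*, its MAP kinase, rose by 0.80 in Spt4-AA and 1.07 in wild type. *PKC1* fell by 0.31 in Spt4-AA and rose by 0.46 in wild type (difference in response -0.77, adjusted p = 0.00417), and *WSC1*, a sensor, was at -0.07 in Spt4-AA (adjusted p = 0.545) and rose by 0.34 in wild type (difference -0.41, adjusted p = 0.0433). The sensor gene *MID2* was at -0.18 in Spt4-AA and fell by 0.89 in wild type (difference 0.70, adjusted p = 0.00156). *ROM2* was at 0.01 in Spt4-AA (adjusted p = 0.954) and rose by 0.72 in wild type, and *BCK1* fell by 0.70 in Spt4-AA and 0.44 in wild type.

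**Figure D5:**
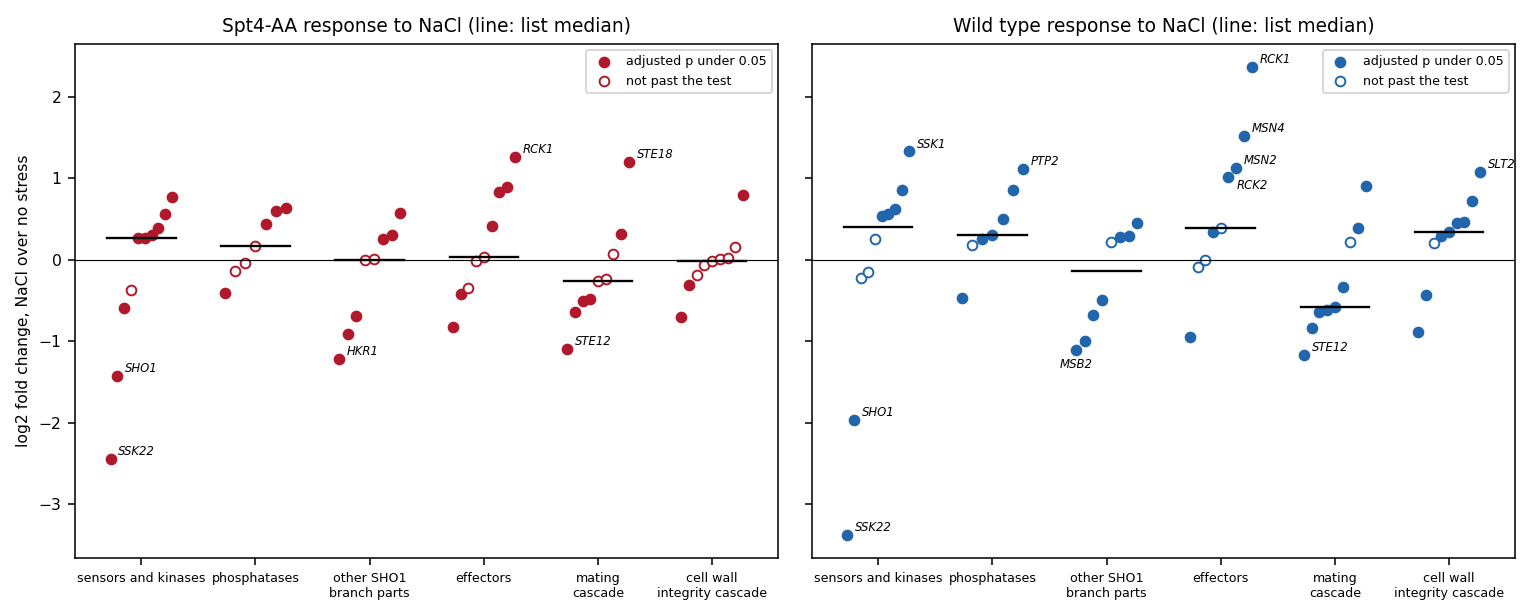
Log2 fold change upon NaCl in Spt4-AA (left) and wild type (right) of the 10 sensor and kinase genes and of the 5 other lists, with a line at each list's median and filled points at an adjusted p under 0.05. *SSK22* and *SHO1* are the lowest points of both panels and *RCK1* the highest, and the scale is relative to all genes (scaled to *ENO1*, the median gene lies 0.82 lower in Spt4-AA and 0.52 lower in wild type).

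The genes whose normalized log2 CPM was most like that of each member over the 12 libraries were found by Pearson's r, given as a description because libraries of a group share their treatment. *SHO1* was most like *SPB1* (r = 0.997) and *DIP2* (0.996), both of ribosome synthesis. *SSK22* was most like *CPA1* (0.993), of arginine synthesis, and *TPA1* (0.993). *SSK1* was most like *PDR15* (0.997), a membrane transporter gene, and *JIP4* (0.996). The closest to *HOG1* were *CPS1* (0.991), a vacuolar peptidase gene, and *PSD1* (0.989), of mitochondrial phospholipid synthesis.

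For the other members the likeness was lower. *PBS2* was closest to *XDJ1* (0.986) and *ICY1* (0.979), *STE11* to *DNM1* (0.983), of mitochondrial fission, and *TOS8* (0.982), and *STE50* to the proteasome gene *RPN11* (0.976) and *HSV2* (0.976). *SSK2* was closest to *TRS130* (0.976) and *COY1* (0.973). *SLN1* was closest to YNL054W-B (0.985) and YPR137C-B (0.976), which RefSeq annotates as gag-pol fusion genes of retrotransposons and whose counts are uncertain because near-identical copies exist. *YPD1*, which moved little, had the lowest values, with *HTL1* at 0.859 and *SHU2* at 0.856. Among the 10 genes, *SSK22* and *SHO1* were the most alike (0.984), and *SSK1* and *SHO1* ran most opposite (-0.985).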

How the data were processed

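Poly(A) RNA of 12 yeast libraries was sequenced with stranded kits and single-end reads of 50 bases. The authors mapped the reads to sacCer3 with TopHat2 2.1.0, counted uniquely mapping reads per gene with featureCounts 1.5.1 and the Ensembl R64 annotation, and deposited whole-number counts for 7126 genes without normalization or pooling. Which strand setting featureCounts was run with is not given in the sources used here. The authors' own comparison used DESeq2 1.14.1, and none of its values were used. Everything else was computed from the deposited counts.

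Counts were normalized by TMM and tested in edgeR 4.0.16 (R 4.3.3) with filterByExpr, robust quasi-likelihood fits and 1 coefficient for each of the 4 groups, which share 1 estimate of the spread (common dispersion 0.0166). The Benjamini-Hochberg correction was applied over 6040 genes, and a gene passed at an adjusted p under 0.05. An estimated change of at least 2-fold was counted beside it. The study's methods set a stricter rule for osmo-responsive genes, which had to exceed 2-fold significantly. Standard errors and 95% intervals come from the same fit. At these depths standard errors had a median over genes of 0.145 (wild type response, log2) and 0.202 (difference in response). Replicates differed by more than sampling noise in every pair (chi-square over its degrees of freedom at least 6.31). The pairs of Spt4-AA NaCl libraries were at 31.2, 72.1 and 128. Those of wild type NaCl were at 7.08 to 34.2, and those without stress at 6.31 to 17.9. Whether the shared estimate of the spread makes the standard errors of comparisons with Spt4-AA NaCl too small was not tested. CPM are TMM-normalized, and levels per kb use the coding length of the R64 reference from RefSeq, where 6048 genes were matched and gene starts are start codons. Likeness of genes was measured on log2 CPM with a prior count of 2. For the length correction, each gene's log2 CPM was taken relative to its mean over all libraries. A lowess curve (span 0.5) of these values on log2 length was then removed from each library. Length trends shared by the libraries of a group were thereby removed as well.

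On simulated counts of a wild type response, 95% of 100 genes with a log2 change of 1 and 100% of 100 genes with a change of 2 were called, with 14 false calls among 5773 genes. For the difference in response the shares were 86% and 100%, with 7 false calls among 5780. No change under 1 was simulated, and the largest difference in response among the pathway genes was 0.93 (*SSK22*). Recovery of differences of that size or smaller was therefore not tested. The simulation changed 100 genes at each size, whereas the real wild type response had 2200 genes called higher and 2048 lower. The rate of false calls when so many genes change was not tested either.

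The 10 genes, the other lists and the motifs were chosen with earlier results of these data known. The text names the 10 genes, up to 3 rises and 3 falls of each list by size in the wild type response and in the difference in response, the 2 genes most like each member, *SPT4* and 4 salt-induced genes. Alternatives were DESeq2 1.42.0, RLE size factors, library totals, scaling to *ENO1*, no filter, a filter of 10 counts in each library, a replicate block, a term for library numbers, the length correction, fits on the groups compared alone, unique read starts as length, and each library left out in turn. The blots, chromatin immunoprecipitation and kinase assays of the study are not analysed here.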

Additional observations from a re-analysis of the deposited data

Results flagged for a closer look

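For 5 of the 10 genes the response to NaCl differed between Spt4-AA and wild type by a test of the difference itself (edgeR, adjusted over 6040 genes), 3 of them higher and 2 lower, where 15% of all genes passed as higher and 11% as lower. *SSK22*, a MAPKKK gene of the Sln1 branch, fell less in Spt4-AA, with a difference in response of 0.9284 on the log2 scale. *SHO1*, the membrane protein gene of the other branch, also fell less, with a difference of 0.5363. *YPD1*, the phosphotransfer gene, had a difference of 0.4151, with all 3 stressed Spt4-AA libraries above the unstressed ones and all 3 stressed wild type libraries below. The MAPKKK gene *STE11* rose less in Spt4-AA (-0.5899), and so did the response regulator gene *SSK1* (-0.5587). Of the 12 libraries left out in turn, 9 ended the call of *YPD1*, 5 that of *SHO1*, 5 that of *SSK22* and 0 those of *SSK1* and *STE11*. The call of *SSK1* was lost with the length correction (adjusted p = 0.0956) and that of *STE11* with the term for library numbers (adjusted p = 0.115), and scaled to *ENO1* none of the 5 passed.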

How the results depend on the processing

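Scaled to *ENO1*, the counts of members called in the Spt4-AA response were 0 higher and 6 lower (589 genes higher and 3642 lower in all), and in the wild type response 1 higher and 4 lower (1005 genes higher). Estimates that changed sign in the Spt4-AA response were *PBS2* -0.52, *YPD1* -0.55, *STE50* -0.45, *SSK1* -0.044, *HOG1* -0.28 and *STE11* -0.52, and in the wild type response *SSK2* -0.26. Without stress 10 genes were then higher and 20 lower. Upon osmostress 0 members and 582 genes were higher in Spt4-AA, with *YPD1* at -0.11 and *HOG1* at -0.29, and the difference in response called 0 members and 332 genes as higher and 0 members and 218 genes as lower. With library totals alone *YPD1* was at 0.19 and *SLN1* at 0.12 in the wild type response, *SSK1* at -0.0023 between the unstressed strains, 1 member and 918 genes were higher in Spt4-AA upon osmostress, with *YPD1* at -0.012 and *HOG1* at -0.18, and 0 members had a higher response and 3 a lower one (*PBS2*, *SSK1*, *STE11*). With the term for library numbers 3 members rose in Spt4-AA, 26 genes were higher without stress, 816 genes were higher and 2 members and 644 genes lower upon osmostress with *HOG1* at -0.062, and the difference in response called 1 member and 562 genes as higher and 1 member and 304 genes as lower. With the length correction *SSK2* was at 0.032 in the Spt4-AA response. Upon osmostress 2 members and 1249 genes were then lower in Spt4-AA, with *SLN1* at 0.14. The difference in response called 1 member and 618 genes as lower, with *SLN1* at 0.021 and *HOG1* at 0.020. Without stress, DESeq2 called 33 genes higher, fits on the 2 groups alone 36, and the filter of 10 counts 9 higher and 22 lower. Estimates near 0 changed sign in a few settings: *SSK22* without stress (0.0098 with RLE, 0.0088 with DESeq2, 0.0035 on the 2 groups alone) and the difference in response of *HOG1* (0.005 with RLE, 9e-04 with DESeq2, 0.0038 with the filter of 10 counts). A promoter window of 500 bases held AGGGG in 4 members (36.4% of all promoters), TGACGT in 3 (15.13%), TGAAACA in 1 (13.35%) and GATGAG in 2 (31.1%). In the Spt4-AA response 5 members and 2086 genes rose with DESeq2, and 5 members and 2130 genes without the filter on low counts. On the groups compared alone 4 members and 2003 genes rose. The cause of these changes was not tested.

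With each library left out in turn, members called ran from 4 to 6 as higher in the Spt4-AA response, 2 to 3 as lower in the wild type response, 3 to 4 as lower upon osmostress and 0 to 3 as having a higher response. Genes called without stress ran from 8 to 26 higher and 16 to 46 lower, and the difference in response from 733 to 1292 higher and 442 to 1102 lower. Estimates that changed sign ranged from -0.020 to 0.39 for *SSK2* in the wild type response, from -0.071 to 0.084 for *HOG1* upon osmostress and from -0.10 to 0.077 for its difference in response. Without stress they ranged from -0.031 to 0.15 for *SHO1*, -0.015 to 0.090 for *STE50*, -0.10 to 0.11 for *SSK22*, -0.056 to 0.062 for *SSK1*, -0.055 to 0.078 for *HOG1*, -5e-04 to 0.073 for *STE11* and -0.33 to 0.045 for *SSK2*.

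Deviations from the group means correlated over 0.1 in 9 of the 18 pairs of samples that share a replicate number (r between -0.438 and 0.416, median 0.099) and in 14 of the 36 that do not (median -0.065). All 6 pairs of number 2 were over 0.1 (0.114 to 0.377), and 2 of 6 of number 1 and 1 of 6 of number 3. The numbers were not treated as pairing the samples, since this did not hold for every pair. With the replicate number as a block, *STE11* in the Spt4-AA response was at 0.26 (adjusted p = 0.0514) and no other call on the 10 genes changed. The depth limits *SSK22* most, with 22 to 36 counts in stressed wild type.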
